A study of Mus musculus with 24 samples.

Results

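miR-21 (mmu-miR-21 in the array design) was followed on 24 miRNA arrays of lungs from SP-C/c-raf transgenic and wild type mice, with 6 arrays in each of 4 groups. The 1-colour array carries 611 mouse miRNAs, and miR-21 was 1 of them; its rows were found by its name in the array design. It is read by 2 different probes with 10 spots each, hence by 20 spots on every array and 480 spots over the series. The transgenic groups, M c-Raf for males and F c-Raf for females, express an active c-Raf-1 kinase (c-Raf-1-BxB) in the lung epithelium under the surfactant protein C (SP-C) promoter; the controls without the transgene are called M WT and F WT. All animals were 4 to 6 months old, each array was 1 animal, and 100 ng of total RNA from cells microdissected out of frozen lung sections was labelled with Cy3. The tissue label reads lung adenocarcinoma for all 24 arrays, WT included, whereas the protocol calls the WT tissue normal lung. Whether the cells taken from WT lungs are of the same kind as those taken from c-Raf lungs cannot be told apart from the effect of the transgene in these arrays.

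A miRNA guides a silencing complex to messenger RNAs, mostly by pairing of its seed near the 5′ end, and lowers their stability and translation. miR-21 is known as an oncogenic miRNA that is abundant in many carcinomas, lung cancer among them; its transcription answers to AP-1 and STAT3, and Ras, Raf and MAP kinase signalling is one of the routes that activate AP-1. Among its known targets are the tumour suppressor PDCD4 and the Sprouty and SPRY-related inhibitors of the Ras and MAP kinase pathway.

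The sequence that the array's miR-21 stands for is shown first, because all values below belong to this strand, together with its passenger strand and its closest relatives. Sequences are those of RefSeq on build GRCm38.p6, 5′ to 3′, with the seed (bases 2 to 8) in capitals. The name used by the array is an older one, listed in RefSeq as a synonym of Mir21a.
miR-21: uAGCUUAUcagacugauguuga
miR-21*: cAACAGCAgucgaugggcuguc
miR-21b: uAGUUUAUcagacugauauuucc
miR-21c: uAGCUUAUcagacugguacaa

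Mature miR-21 lies on the minus strand at chr11:86584120-86584141, in a hairpin of 92 bases at chr11:86584067-86584158 that falls within the annotated span of Vmp1, and miR-21* lies in the same hairpin at chr11:86584082-86584103. Of the 1679 mature names in the RefSeq table, 2 carry the miR-21 seed, miR-21 itself and miR-21c. miR-21c matches miR-21 over the first 15 bases and differs at A16G, G18A, U19C, U20A and G21A, with positions counted from 1 at the 5′ end, miR-21 first and no gap allowed. miR-21b differs at C4U within the seed, and at G18A, G21U and A22C. Neither miR-21b nor miR-21c is on the array, and whether they hybridise to the miR-21 probes was not tested. miR-590-5p, known to share the seed, is on the array but is not among the 1679 names, so the count of 2 does not include it.

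The arrays differed widely in signal. The 75th percentile of intensity over the spots of the 27 miRNAs detected on every array, called the brightness here, ran from 34.9 to 1212 arbitrary units, and from 38 to 179 mouse miRNAs were detected per array. Log2 brightness was higher by 1.18 in M c-Raf than in M WT (exact permutation p = 0.186 over 924 divisions of 12 arrays) and lower by 0.22 in F c-Raf than in F WT (difference -0.22, exact permutation p = 0.688). All values of miR-21 were therefore divided by the brightness of their array before log2 was taken, and are called scaled intensity; spots below 0.01 were set to 0.01 (-6.64 on the log2 scale). Each of the 6 slides held 1 array of each group, always at the same position, so that position on the slide and group cannot be told apart.

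Detection of miR-21 was as follows. The extraction software flagged miR-21 as detected on 22 of 24 arrays, on 4 of 6 in M WT and on 6 of 6 in every other group. The exceptions were M WT replicates 4 and 5. Its passenger strand miR-21* was detected on 0 of 24 arrays, with 2 of 480 spots well above background, and miR-590-5p also on 0 of 24, with 4 of 480 spots. Neither has a level in these data, so no comparison was made for them.

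The probes that read miR-21 differed in signal. Probe A_54_P1307 was bright and probe A_54_P1308 was weak: on the 9 arrays where 5 or more of the weak probe's 10 spots stood well above background, the bright probe gave a median signal of 8.36 to 10.4 times that of the weak probe. This ratio belongs to the probes and says nothing about amounts of RNA. On 23 of 24 arrays every spot of the bright probe exceeded every spot of the weak probe, the exception being M WT replicate 4, where the medians of the probes were 1.34 and 0.436 units. The median over 20 spots, by which the study summarised each miRNA, therefore fell in the gap between the probes on those 23 arrays, midway between the lowest bright spot and the highest weak spot. Hence each result is given for the median of 20 spots and for the bright probe.

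**Figure D1:**
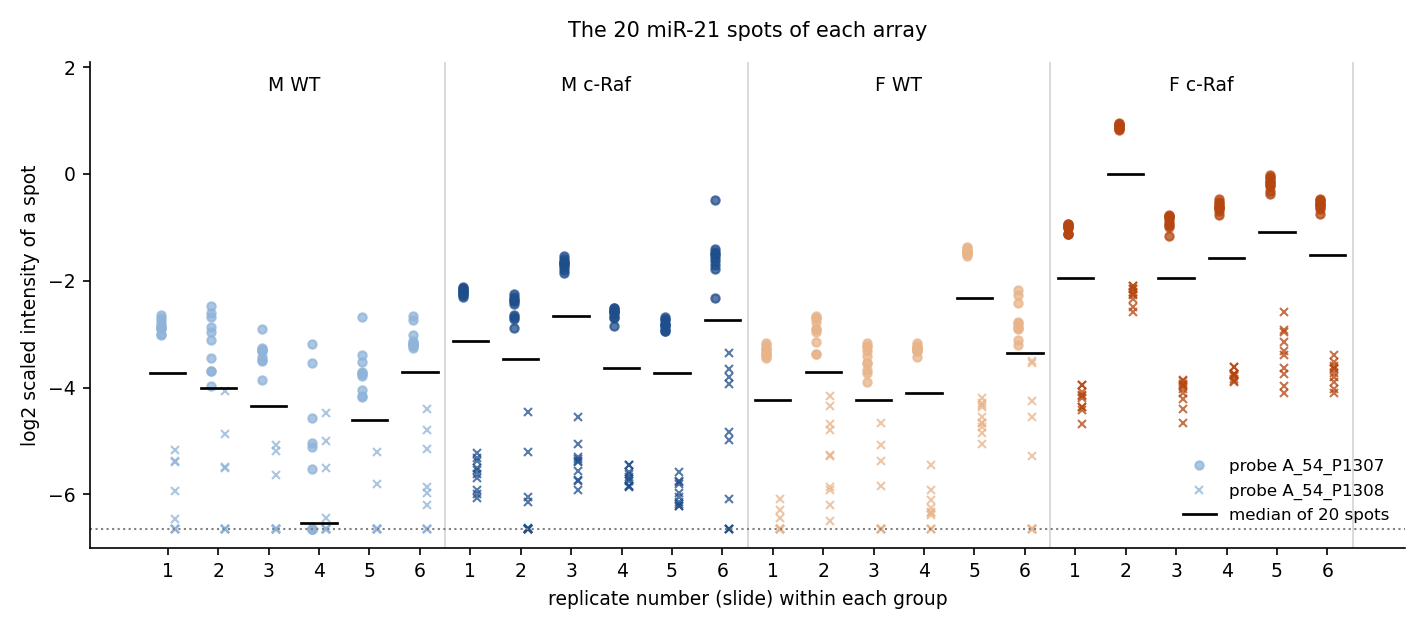
Log2 scaled intensity (y axis) of each miR-21 spot on each array (x axis, replicate number within the 4 groups), with circles for probe A_54_P1307, crosses for probe A_54_P1308, a black line for the median of the 20 spots and a dotted line at the floor of -6.64. The probes form separate bands on 23 of 24 arrays and the black line lies between them; on M WT replicate 4 the bands mix.

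The spots well above background followed the same order for both probes. For the bright probe these were 60 of 60 spots in F c-Raf and 55 of 60 in their male counterparts, against 48 of 60 in F WT and 31 of 60 in the WT males. For the weak probe they were 47, 20, 15 and 0 of 60 in the same order. F c-Raf was thus the group in which the bright probe was measured on all spots, and M WT the group without any measured spot of the weak probe. No miR-21 spot was saturated, and 15 spots were marked as outliers by the software. Spots of the bright probe varied within an array by a median coefficient of variation of 5.78% and 6.71% in the females and males with the transgene, and of 11.4% and 25.4% in those without, so the dimmest group was also the least precise.

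The signal of the bright probe before scaling was low in WT lungs. Its median over 10 spots had a lowest, median and highest value of 1.34, 16.6 and 31.8 units over the 6 M WT arrays and of 8.10, 25.5 and 153 units over those of WT females. In lungs with the transgene it was 11.9, 93.1 and 203 units in males and 77.9, 153 and 371 units in females. The unscaled ranges of c-Raf and WT overlapped in males and in females. After scaling, the bright probe stood at 0.0253, 0.106 and 0.138 of the array's brightness in M WT and at 0.0902, 0.119 and 0.362 in WT females. It stood at 0.142, 0.203 and 0.342 in M c-Raf and at 0.503, 0.662 and 1.86 in transgenic females. Thus 1 F c-Raf array, replicate 2, had bright-probe signal above the brightness itself, and no array of another group came within the F c-Raf range.

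On the log2 scale of the median of 20 spots, the means of the 4 groups were ordered from WT males, the lowest, over WT females and transgenic males to transgenic females. M WT had a mean of -4.49 ± 1.06 (SD, n = 6) and ranged from -6.54 to -3.72 with a median of -4.18, and F WT had -3.66 ± 0.74, from -4.23 to -2.33 with a median of -3.91. With the transgene, males had -3.22 ± 0.46, from -3.72 to -2.65 with a median of -3.29, and females -1.35 ± 0.74, from -1.95 to 0.0079 with a median of -1.55. F c-Raf overlapped with none of the other groups. The ranges of the 3 remaining groups overlapped with each other, F WT and M c-Raf because of F WT replicate 5, which at -2.33 lay above all M c-Raf arrays, and F WT replicates 2 and 6, which lay within their range.

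**Figure D2:**
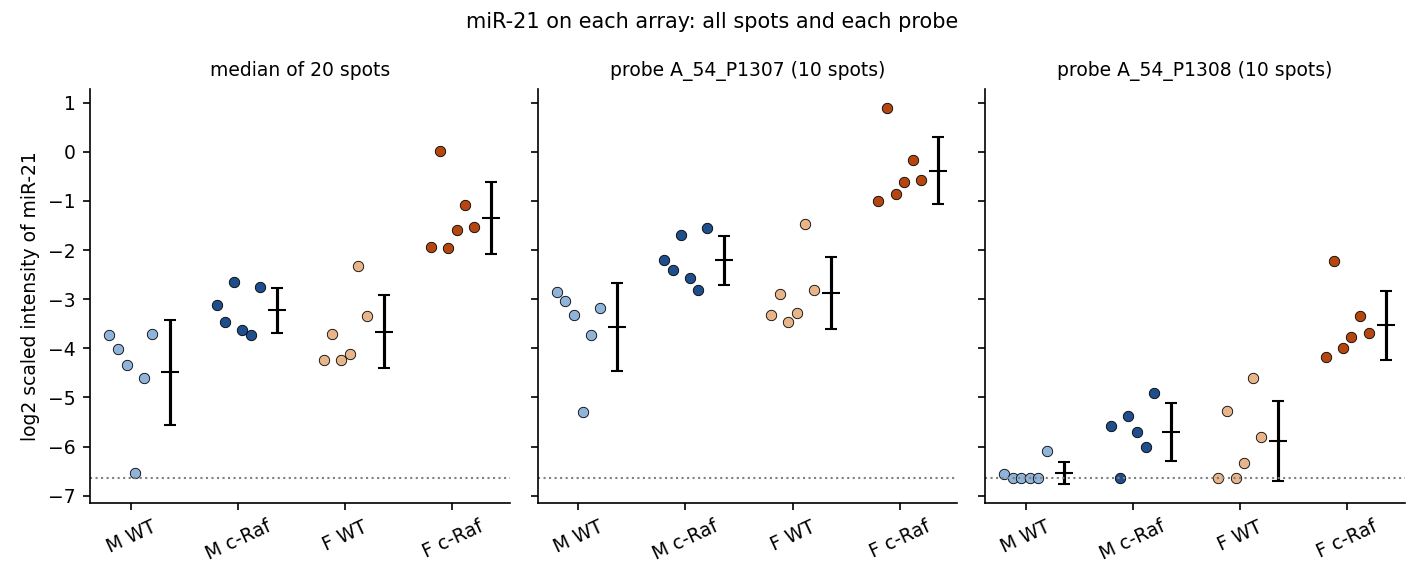
Log2 scaled intensity of miR-21 (y axis) on each of the 6 arrays per group (circles) for the median of 20 spots, the bright probe A_54_P1307 and the weak probe A_54_P1308, with the mean and SD beside each group and a dotted line at the floor of -6.64. F c-Raf lies highest in all panels, from -1.95 to 0.0079 for the median of 20 spots, and M WT replicate 4 lies lowest at -6.54.

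Males with and without the transgene were compared first, to ask whether c-Raf activity regulates miR-21 in them. miR-21 was higher in M c-Raf by 1.27 on the log2 scale (SE 0.44, 95% interval 0.36 to 2.17, or 2.41-fold), but this did not pass the threshold after adjustment over the 120 miRNAs tested (limma adjusted p = 0.123). For miR-21 alone, an exact two-sided permutation test over 924 divisions of the arrays gave p = 0.00433, or 0.00541 adjusted over 5 such comparisons of miR-21. Here and below, the permutation p-values of miR-21 do not allow for its choice among the 120 miRNAs, made with earlier results known. They also divide the arrays without regard to slide. Of the 120 miRNAs, 3 were called at an adjusted p under 0.05 in this comparison (2.5%), 1 higher (0.833%) and 2 lower in c-Raf (1.67%), and miR-21 was at rank 8 by p. The ranges overlapped through 1 array, since M WT replicate 6, at -3.72, lay just inside the M c-Raf range. On the bright probe the male groups did not overlap, at -2.81 to -1.55 in M c-Raf and -5.30 to -2.86 in M WT, with a difference of 1.37 (SE 0.41, adjusted p = 0.0763 by limma over 265 probes, of which 3.02% were called). The bright probe was measured well above background on 5 or more of its 10 spots on 3 of the 6 M WT arrays. If every M WT array is placed no lower than its own lowest signal well above background, M c-Raf was at least 1.66-fold higher on this probe. The weak probe was not well above background on any spot in M WT, and no fold is given for it.

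Within slides, the male difference was above 0 on 6 of 6 slides, from 0.55 on slide 2 to 2.91 on slide 4. Within the 4 scan batches it was 2.91, 0.93, 0.61 and 1.12 for scans 1 to 4, of which scans 1 and 3 held 1 slide each. The highest value comes from M WT replicate 4, without which the male difference was 0.86 (adjusted p = 0.349). The direction turned in 1 setting, normexp background correction, at -0.39, where the median over all 120 miRNAs was -0.79. The male difference was 0.19 (adjusted p = 0.662) with the floor raised to the dimmest signal well above background of each array, where the median was -0.61, and 0.43 (adjusted p = 0.392) with a floor of 0.1; it was 0.76 with array weights, and 1.98 with all spots other than controls as scaling set, 2.01 in the deposited table and 2.13 without scaling. miR-21 passed the threshold in males with outlier spots left out (1.89, adjusted p = 0.0279) and with the mean of the probe medians (1.29, adjusted p = 0.0472), an alternative added after the signals of the probes were seen.

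In females miR-21 was up-regulated with the transgene. It was higher in F c-Raf than in F WT by 2.31 (SE 0.44, 95% interval 1.41 to 3.22, or 4.97-fold; limma adjusted p = 0.00157), and all 6 F c-Raf arrays lay above all 6 F WT arrays. The exact permutation p was 0.00216, the smallest that 6 against 6 arrays can give. Of the 120 miRNAs 6 were called (5%), 4 higher (3.33%) and 2 lower in c-Raf (1.67%), and miR-21 had the largest difference in size and the second smallest p. The bright probe passed on its own with 2.49 (SE 0.41, adjusted p = 0.000525), and was well above background on 5 or more of its 10 spots on all 12 arrays. The weak probe was so on 5 F c-Raf but only 2 F WT arrays, and with each F WT array placed no lower than its lowest signal well above background, F c-Raf was at least 1.45-fold higher on it.

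Every slide showed the female difference, from 1.24 on slide 5 to 3.72 on slide 2, and it was 2.53, 1.53, 2.29 and 3.00 within scans 1 to 4. With any single array left out it ranged from 2.04 to 2.58 and stayed past the threshold. It was not past the threshold under scaling over all spots other than controls (2.43, adjusted p = 0.201), without scaling (2.09, adjusted p = 0.465), with normexp (1.22, adjusted p = 0.326), in the deposited table (2.37, adjusted p = 0.575) or by the methods' t-test after adjustment (2.06, adjusted p = 0.996), while its direction was the same in each.

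**Figure D3:**
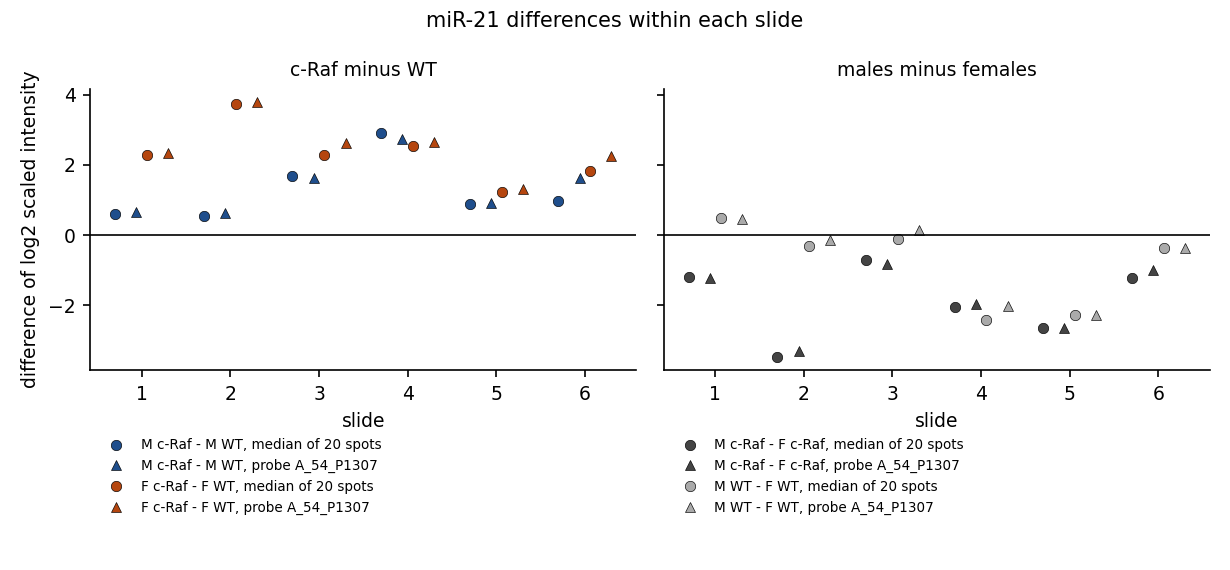
Difference of miR-21 in log2 scaled intensity (y axis) within each of the 6 slides (x axis), with 1 array of each group per slide, for the median of 20 spots (circles) and the bright probe (triangles); left, c-Raf minus WT in males and females, and right, males minus females in c-Raf and WT. c-Raf minus WT lies above 0 on all slides in both sexes, and males minus females lies below 0 on all slides in c-Raf.

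Over both sexes miR-21 was higher in c-Raf by 1.79 (SE 0.31, 95% interval 1.15 to 2.43, or 3.46-fold; limma adjusted p = 0.000318). Its difference was the largest in size among the 120 miRNAs, of which 22 were called (18.3%), 15 higher (12.5%) and 7 lower in c-Raf (5.83%). An exact permutation test within each sex over 853776 divisions gave p = 4.69e-06. The bright probe gave 1.93 (SE 0.29, adjusted p = 0.000287). With the floor raised to the dimmest signal well above background the difference was 1.06 (adjusted p = 0.0453), and with a floor of 0.1 it was 1.12. The call was lost with normexp (0.41, where the median of all miRNAs was -0.08), in the deposited table (2.19, adjusted p = 0.0551) and by the methods' t-test after adjustment (1.99, adjusted p = 0.296).

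The c-Raf effect on miR-21 in males was then set against that in females, by an interaction term. The effect in males was smaller than in females by 1.04 (male minus female effect -1.04, SE 0.62, 95% interval -2.32 to 0.24). The interval included 0, and the difference did not pass after adjustment over the 120 miRNAs (limma adjusted p = 0.872). For the bright probe the same difference was -1.13 (SE 0.57, 95% interval -2.32 to 0.064, limma adjusted p = 0.942). For the weak probe it was -1.52 (SE 0.50, limma adjusted p = 0.942). Its unadjusted 95% interval, -2.56 to -0.48, lay below 0. The weak probe had no spot well above background in M WT, so its male effect rests on values at or near the floor. A smaller effect in males is thus neither established nor excluded. By limma 0 of 120 miRNAs were called in this comparison (0%), although 5 of them had an unadjusted p under 0.05, and the array weights alternative called 3 miRNAs, with miR-21 at -1.58 (adjusted p = 0.047). The miRNA with the smallest p was miR-146b, at -1.38 (SE 0.37, adjusted p = 0.126).

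Among the transgenic mice, miR-21 was lower in males than in females by 1.88 (M c-Raf minus F c-Raf -1.88, SE 0.44, 95% interval -2.78 to -0.97; limma adjusted p = 0.0177). The arrays of the 2 sexes did not overlap, and males were lower on 6 of 6 slides, by 0.70 to 3.48 (differences -0.70 to -3.48); the exact permutation p was 0.00216. Of the 120 miRNAs 3 were called (2.5%), all lower in males. On the bright probe the difference was -1.82 (SE 0.41, adjusted p = 0.0257). The call rests in part on F c-Raf replicate 2, without which the difference was -1.60 (adjusted p = 0.0674), and it was lost in 9 other settings, in each with the same direction.

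In WT mice miR-21 did not pass the test between the sexes. M WT minus F WT was -0.83 (SE 0.44, 95% interval -1.74 to 0.07; limma adjusted p = 0.517, exact permutation p = 0.152), and males were lower on 5 of 6 slides. By limma 0 of 120 miRNAs were called (0%), and for 11 the unadjusted p was under 0.05. The lowest p belonged to miR-23a, at -0.37 (SE 0.14, adjusted p = 0.496). Without M WT replicate 4 the difference of miR-21 was -0.42. On the bright probe, with all arrays, M WT minus F WT was -0.69 (SE 0.41, limma adjusted p = 0.68), and males were lower on 4 of 6 slides.

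**Figure D4:**
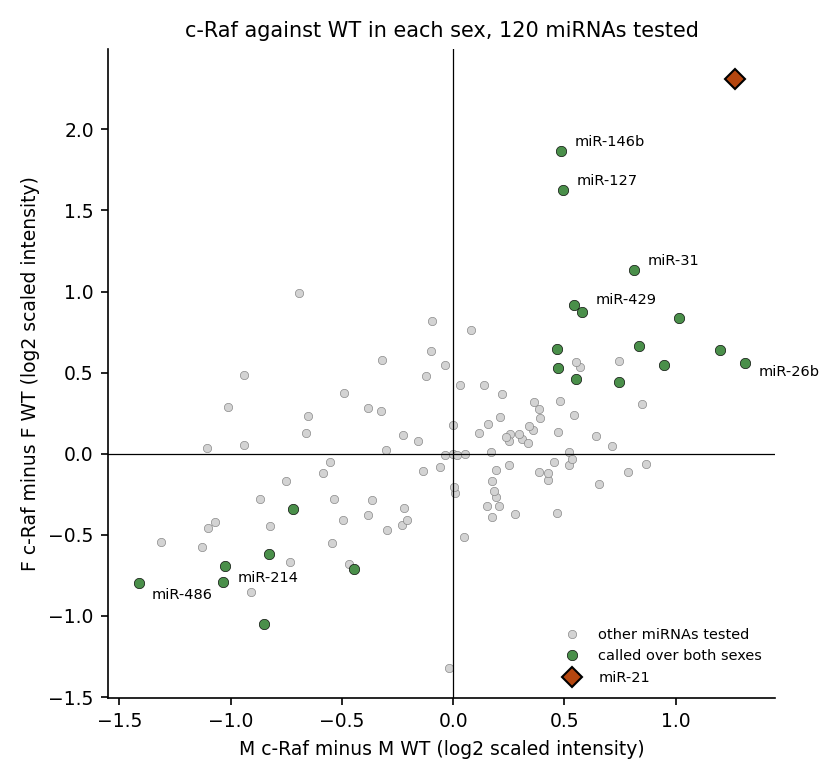
Difference between c-Raf and WT in log2 scaled intensity in males (x axis) and in females (y axis) for the 120 miRNAs tested (circles, green where called over both sexes at an adjusted p under 0.05), with miR-21 as a diamond. miR-21 lies at 1.27 in males and 2.31 in females, the latter the largest of the 120.

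miRNAs whose pattern over the 24 arrays was most like that of miR-21 were looked up among the 119 others tested, by Pearson correlation of log2 scaled intensity. The 5 highest were miR-146b (r = 0.875, rho = 0.819), miR-429 (r = 0.871, rho = 0.768), miR-200b (r = 0.797, rho = 0.806), miR-342-3p (r = 0.797, rho = 0.755) and miR-30a (r = 0.758, rho = 0.617). The 3 lowest were miR-214 (r = -0.827, rho = -0.743), let-7b (r = -0.817, rho = -0.756) and miR-486 (r = -0.728, rho = -0.77). These values describe arrays that share a scaling factor per array and hold 4 groups, and no test was attached. After the group means were taken out, r was 0.553 for miR-146b, 0.724 for miR-429, 0.665 for miR-200b, 0.68 for miR-342-3p and 0.626 for miR-30a, and -0.8, -0.809 and -0.491 for miR-214, let-7b and miR-486. The signs within groups were the same, but the miRNAs had been chosen by r on these same arrays. M WT replicate 4 stood apart from its group for miR-21, miR-429, miR-200b and miR-30a, and in the other direction for miR-214. The correlations were not computed without that array. The sequences of these miRNAs are shown to set their seeds, in capitals, beside that of miR-21.
miR-146b: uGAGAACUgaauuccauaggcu
miR-429: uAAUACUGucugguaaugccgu
miR-200b: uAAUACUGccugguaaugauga
miR-342-3p: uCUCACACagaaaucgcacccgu
miR-30a: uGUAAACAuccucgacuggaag
miR-214: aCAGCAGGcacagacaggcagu
let-7b: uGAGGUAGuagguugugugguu

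None of these shares the miR-21 seed. miR-429 and miR-200b share theirs with each other, and both are encoded on the minus strand of chromosome 4, at chr4:156053916-156053937 and chr4:156055685-156055706 in RefSeq.

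miR-146b, a miRNA induced by NF-kappaB that targets adaptors of innate immune signalling, moved with miR-21 by its level in F c-Raf. On the log2 scale it was at -4.52 ± 0.55 (SD, n = 6) in females and -6.13 ± 0.33 in males with the transgene, and at -6.39 ± 0.62 in females and -6.61 ± 0.08 in males without. It was at the floor on 5 of 6 arrays of each WT group and was detected on 5, 3, 1 and 0 arrays of these groups in the same order. Its differences of 1.87 in females (SE 0.26, limma adjusted p = 3.91e-05), 1.18 over both sexes (SE 0.18, adjusted p = 0.000153) and -1.60 for transgenic males minus females (SE 0.26, adjusted p = 0.000377) had the smallest p of each comparison. These values depend on the floor: over both sexes the difference was -0.48 with the floor raised to the dimmest signal well above background of each array.

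The members of the miR-200 family, which keep epithelial cells in their state by repressing ZEB1 and ZEB2, rose over both sexes in 3 of 4 tested cases, where 12.5% of all miRNAs tested were called higher. miR-429 was at -3.68 ± 0.41 (SD, n = 6) in females and -4.35 ± 0.20 in males with the transgene, and at -4.55 ± 0.17 and -4.93 ± 0.85 in WT females and males, with a difference of 0.73 (SE 0.20, limma adjusted p = 0.018). miR-200b was at -1.79 ± 0.37, -2.48 ± 0.44, -2.45 ± 0.29 and -3.32 ± 1.14 in the same order, with a difference of 0.75 (SE 0.26, adjusted p = 0.0482), a call that was lost in 16 of 24 runs with 1 array left out. miR-200a was higher by 0.73 (SE 0.21, adjusted p = 0.0217). With the floor raised to the dimmest signal well above background of each array, miR-429 and miR-200a turned to -0.042 and -0.47.

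Of the other miRNAs like miR-21, miR-342-3p, which is hosted by the Evl gene, rose by 0.51 over both sexes (SE 0.15, limma adjusted p = 0.0242) and miR-30a, of a family abundant in epithelia, by 0.50 (SE 0.16, adjusted p = 0.0288). These calls were lost in 10 other settings for miR-342-3p and in 12 for miR-30a, with the same direction. That of miR-30a was also lost in 3 of 24 runs with 1 array left out. The opposite pattern was seen for miR-214, a miRNA of mesenchymal cells, which fell over both sexes (difference -0.86, SE 0.14, adjusted p = 0.000153), in males (-1.03, SE 0.19, adjusted p = 0.00297, the smallest p of that comparison, but 0.15 without scaling) and in females (-0.69, SE 0.19, adjusted p = 0.0338). miR-486, abundant in red blood cells, fell over both sexes (-1.10, SE 0.23, adjusted p = 0.00213) and in males (-1.41, SE 0.33, adjusted p = 0.0161). Its call was lost in 6 other settings over both sexes and in 9 in males, with the same direction. That in males was also lost in 1 of 24 runs with 1 array left out. let-7b, a member of the let-7 family that represses Ras, was at 2.99 ± 0.14 (SD, n = 6) in males and 2.79 ± 0.36 in females with the transgene, at 3.37 ± 0.49 in WT males and 3.17 ± 0.25 in WT females, and did not pass the test (adjusted p = 0.0631 over both sexes).

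miR-21 was then set beside other miRNAs tied to growth and inflammatory signalling. Of the 16 in this list 8 were tested, and 5 were detected on no array, namely miR-212, miR-17, miR-18a, miR-19a and miR-19b. Over both sexes and in females 2 of the 8 rose, miR-146b and miR-31, and none fell, against 12.5% and 3.33% of all 120 called higher; in males none was called, against 0.833%. miR-31, a miRNA often raised in lung tumours, was higher by 0.98 over both sexes (SE 0.22, limma adjusted p = 0.00479) and by 1.14 in females (SE 0.31, adjusted p = 0.0338), with 6 WT arrays at the floor; with the raised floor these were -0.46 and -0.099. The median difference of the 8 over both sexes was 0.22, against 0.09 over all 120 tested. In males the medians were 0.33 and 0.13, and in females 0.08 and 0.03.

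Of the 14 miRNAs that oppose Ras or are repressed by it, 12 were tested. Over both sexes 1 rose, let-7g by 0.59 (SE 0.20, limma adjusted p = 0.044), and none fell, against 12.5% of all 120 called higher and 5.83% called lower. In males and in females none was called, against 2.5% and 5% of all 120. The median difference of the 12 was 0.14 over both sexes, against 0.09 over all tested. The call of let-7g was lost in 10 of 24 runs with 1 array left out, and in 14 other settings, in each with the same direction. miR-143 and miR-145 were detected on 3 arrays each and were not tested.

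Markers of the cells that microdissected lung can hold were read on the same arrays, since fewer cells of a type and less RNA per cell cannot be told apart in such samples. The epithelial markers miR-200b and miR-200c were detected on all 24 arrays, miR-429 on 13, miR-200a on 11 and miR-141 on 1. The summed scaled intensity of the 4 tested had a lowest, median and highest value of 1.12, 1.504 and 1.85 in F c-Raf arrays and 0.661, 0.950 and 1.96 in their male counterparts. In WT it was 0.817, 1.04 and 1.60 in females and 0.601, 0.991 and 1.38 in males. Of these 4, 3 rose over both sexes, as given above, and 0 were called within males or females, while 12.5%, 0.833% and 3.33% of all 120 miRNAs were called higher over both sexes, in males and in females. F c-Raf thus had the highest median for epithelial markers as for miR-21, with ranges that overlapped for the markers. M c-Raf, in contrast, had the lowest marker median, 0.950, while its median of miR-21 lay above those of both WT groups. The brightest of the 4 markers in each group, miR-200c, was not called over both sexes (0.23, SE 0.19, limma adjusted p = 0.461). The part of the epithelial share in the miR-21 difference was not tested.

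For the other markers, the calls over both sexes stand beside 12.5% of all 120 miRNAs called higher and 5.83% called lower. The endothelial miR-126-3p, on 23 arrays, was higher in c-Raf over both sexes by 0.75 (SE 0.21, limma adjusted p = 0.0217), while miR-126-5p was detected on none. The call of miR-126-3p was lost in 8 other settings, in each with the same direction. Among 5 leukocyte markers miR-142-3p and miR-142-5p were detected on no array, and the 3 tested, miR-223, miR-150 and miR-155, had no call; their summed intensity was 0.0527 to 0.0947 in females and 0.0544 to 0.182 in males with the transgene, and 0.0479 to 0.0704 and 0.0487 to 0.133 in WT females and males. Of the mesenchymal markers 2 of 3 were tested, miR-214, which fell, and miR-199a-3p, which was not called; their sum was 0.206 to 0.256 in males and 0.214 to 0.246 in females with the transgene, and 0.261 to 0.455 and 0.216 to 0.339 in WT males and females. Of the red blood cell markers miR-144 was detected on no array, miR-486 fell and miR-451 was not called, and their sum was 0.0920 to 0.174 in males and 0.0924 to 0.187 in females with the transgene, and 0.0999 to 0.511 and 0.112 to 0.234 in WT males and females. Of these markers miR-214 and miR-486 thus ran opposite to miR-21 over both sexes. The other tested member of each of their lists was not called and lay above 0. These were miR-199a-3p (0.21, SE 0.13, limma adjusted p = 0.293) and miR-451 (0.38, SE 0.28, limma adjusted p = 0.389). The markers of either list thus did not move together, and the part of these cells in the miR-21 difference was not tested.

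**Figure D5:**
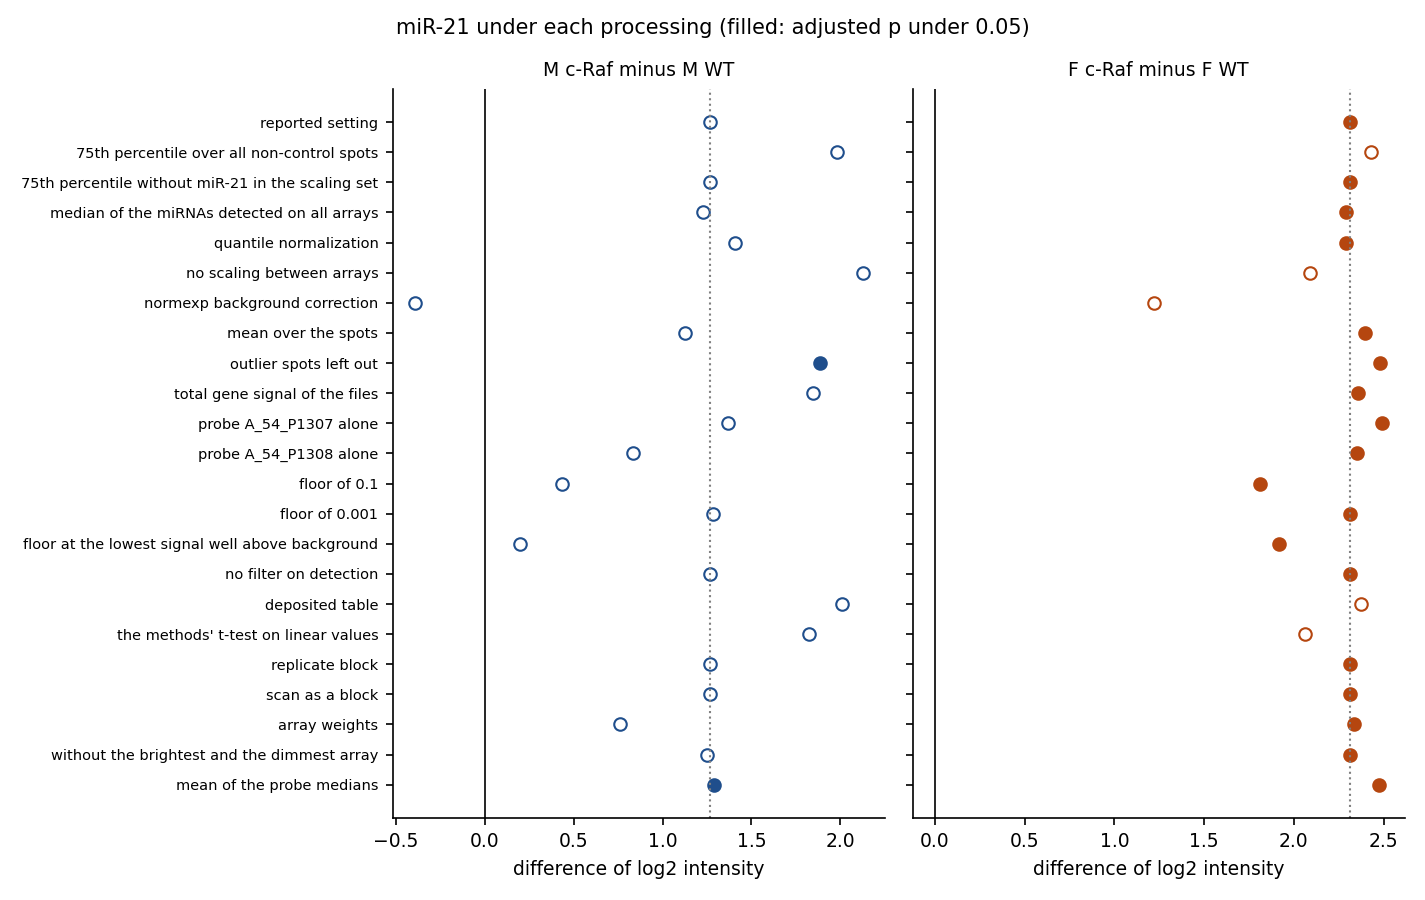
Difference of miR-21 between c-Raf and WT in log2 intensity (x axis) in males (left) and females (right) under each processing (y axis), with the reported value as a dotted line and filled circles for an adjusted p under 0.05. In females all settings lie at or above 1.22, and in males 1 setting, normexp background correction, lies below 0 at -0.39.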

How the data were processed

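Total RNA was hybridised to 24 1-colour Agilent mouse miRNA arrays, 6 for each sex and genotype, as the labels assign them. Spot by spot, the scanner files that the authors deposited give an intensity from which the extraction software had taken background and spatial trend (Feature Extraction 10.7.3.1 per the file headers; the submitters' processing notes list Agilent Feature Extraction 8.1.3), and arrays were not scaled to each other; the array design is on build mm9. A series table deposited by the authors gives processed intensities on a linear scale, uncentred. Its 359 mouse rows lay within 1% of the median over spots multiplied by 1 factor per array in 100% of values, for miR-21 in 24 of 24.

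Control spots were left out. Each array was scaled by its own 75th percentile of the spots of 27 mouse miRNAs that were found on every array (miR-21 is not among them), floored at 0.01, and the log2 of the median over 20 spots was taken. The 120 mouse miRNAs detected on at least 6 arrays entered 1 limma fit (limma 3.58.1, R 4.3.3; 1 mean per group, 1.8 prior and 20 residual degrees of freedom, two-sided, Benjamini-Hochberg over the 120 for each comparison, called at an adjusted p under 0.05). Probes were fitted in the same way over 265 probes. Values at the floor have no order, and differences of dim miRNAs depend on it. The fit was also run on simulated data with known changes. Those were drawn without a floor and without correlation between arrays of a slide, so the run does not bear on either feature. Single values of miR-21 were also compared by exact permutation over arrays (Python 3.11.15). The number of arrays, 6 per group, limits the precision.

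The replicate number was the slide on all arrays by the file headers, and there were 4 scan batches. Deviations from group means correlated above 0.1 in 23 of 36 pairs of arrays on 1 slide (median r = 0.359, against -0.059 between slides). The slide as a block was an alternative. Nothing in the labels separates biological from technical spread beyond 1 animal per array. Named are miR-21, miR-21* and miR-590-5p, the 5 most and 3 least correlated miRNAs, members of the lists that were called or else the first 3 tested, and the miRNA with the smallest p where it was not miR-21. miR-21, the lists and the markers were chosen with earlier results of these data known. For normexp, the median signal columns were used, with an offset of 50. Alternatives are given at the end.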

Additional observations from a re-analysis of the deposited data

Results flagged for a closer look

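In 100 groups of 6 arrays (miR-21 by the median of 20 spots and by each probe, and 22 other named miRNAs) 15 had a highest or lowest array that stood apart from the nearest other array by more of the range of its group than Dixon's limit for 6 arrays allows. Chance gives about 1 in 20 groups if the groups are independent and their values normal. Here the groups share arrays, several miRNAs were named for their correlation with miR-21, and some values lie at the floor. The 15 can therefore not be set against that rate. M WT replicate 4 gave 7 of the 15. There miR-21 was at -6.54 on the log2 scale for the median of 20 spots, against -4.60 to -3.72 on the other M WT arrays, and at -5.30 for the bright probe, against -3.74 to -2.86. On the same array let-7g was at -4.31, miR-200b at -5.62, miR-30a at -3.34, miR-429 at -6.64 (the floor) and miR-214 at -1.34, of which miR-214 was the highest and the others the lowest of the group. This array had a brightness of 52.8 units. Without it, the male difference of miR-21 was 0.86 and that over both sexes 1.59.

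F WT replicate 5 stood apart on the bright probe of miR-21, at -1.47 against -3.47 to -2.82, and was highest for miR-146b (-5.12, the others at the floor) and miR-31 (-4.51). Without it the female difference of miR-21 was 2.58. F c-Raf replicate 2, the array with the highest miR-21, was highest for miR-429 at -2.87 and lowest for miR-214 at -4.07 in its group. The weak probe of miR-21 was at -6.08 on M WT replicate 6, with the other M WT arrays at the floor or near it, miR-146b at -6.46 on M WT replicate 3, and miR-199a-3p at -2.65 on M c-Raf replicate 3.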

How the results depend on the processing

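miR-21 was higher in c-Raf in females and over both sexes in every setting tried, and for males in all but normexp (-0.39). In males miR-21 passed the threshold with outlier spots left out (1.89) and, in an alternative chosen after seeing the data, with the mean of the probe medians (1.29). In females it did not pass with all spots other than controls as scaling set (2.43), no scaling (2.09), normexp (1.22), the deposited table (2.37) or the methods' t-test after adjustment (2.06), nor over both sexes with normexp (0.41), the deposited table (2.19) or the methods' t-test (1.99). The male difference was also 0.19 (adjusted p = 0.662) with the floor at each array's dimmest signal well above background, 0.43 with a floor of 0.1, 0.76 with array weights, 1.98 with all spots other than controls as scaling set, 2.01 in the deposited table and 2.13 without scaling; over both sexes the 2 other floors gave 1.06 (adjusted p = 0.0453) and 1.12. Within single scans, the difference was 2.91 in males (scan 1), 1.53 in females (scan 2) and 2.72 over both sexes (scan 1), each further from the reported value than the spread between replicates. The interaction was 0.039 without scaling, where the median of all miRNAs was 1.38, -1.58 with array weights, -1.72 with the floor at the dimmest signal, -1.61 with normexp, 0.38 within scan 1 and -1.88 within scan 4. M c-Raf minus F c-Raf was not past the threshold with all spots other than controls as scaling set (-1.77), quantile normalization (-1.73), no scaling (-1.18), normexp (-1.35), the total gene signal (-1.70), no filter on detection (-1.88 over 478 miRNAs), the deposited table (-1.69 over 109 miRNAs), the methods' t-test (-1.44) or without the brightest and the dimmest array (-1.89). M WT minus F WT was 0.26 with normexp, -0.17 with a floor of 0.1, -0.19 with array weights, 0.11 with the floor at each array's dimmest signal well above background, -2.43 within scan 1 and 0.50 within scan 3. With single arrays left out the values ranged from 0.86 to 1.42 in males, 2.04 to 2.58 in females, 1.59 to 1.92 over both sexes, -1.45 to -0.77 for the interaction, -1.9965 to -1.60 for M c-Raf minus F c-Raf and -0.99 to -0.42 for M WT minus F WT. The cause of these changes was not tested. Unadjusted, the methods' t-test put miR-21 under 0.05 in each sex and over both.

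With the slide as a replicate block, miR-21 had an adjusted p of 0.0814 in males, of 0.00191 in females and of 0.000445 over both sexes, and no call of miR-21 changed; the number of miRNAs called in females rose from 6 to 10. The number called ranged over the settings from 0 to 7 in males, 0 to 11 in females, 0 to 32 over both sexes, 0 to 3 for the interaction and 0 to 7 for M c-Raf minus F c-Raf, and was 0 throughout for M WT minus F WT. Leaving out outlier spots of 1 probe moves the median towards the other probe, and the level of miR-21 moved by -0.86 to 0.88 on the 10 arrays that had such spots. The set of all 27 miRNAs detected everywhere does not hold miR-21, so it gives no value there.

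Of the other named miRNAs, normexp gave -0.0088 for miR-146b, -0.0087 for miR-31 and -0.025 for miR-200a over both sexes, and 0.30 for miR-214 in females. The floor at each array's dimmest signal well above background gave -0.48 for miR-146b, -0.042 for miR-429, -0.46 for miR-31 and -0.47 for miR-200a over both sexes, and -0.10 for miR-31 in females. In males miR-214 was at 0.15 without scaling and 0.10 by the methods' t-test, and the interaction of miR-146b was 0.97 with all spots other than controls as scaling set. In females the calls of miR-31 and miR-214 were each lost in 9 of 24 runs with 1 array left out. Brightness down to 34.9 units limits what can be said of dim miRNAs.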
